A study of Mus musculus with 2 samples.

Results

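The interferon-induced GTPases described here were 10 genes in the mouse uterus, chosen by symbol out of the 32285 genes counted. They were the 6 guanylate-binding proteins (GBPs) Gbp2, Gbp3, Gbp4, Gbp5, Gbp6 and Gbp7, and the 4 immunity-related GTPases (IRGs) Iigp1, Irgm1, Irgm2 and Igtp. Each symbol matched 1 gene. Whole uteri of female C57BL/6J mice aged 6 months were dissociated with collagenase and DNase for 5 h and profiled by droplet single-cell RNA sequencing, which counts mRNA molecules per cell by unique molecular identifiers (UMIs) at the 3′ end. The library labelled control is titled Prickle1 f/f, a floxed allele of a planar cell polarity gene, and the library labelled cKO is titled Prickle1 f/f MiC. Each library pooled 3 mice, so each condition had 1 library and the spread between mice cannot be seen. No test between conditions was possible, and every interval below covers counting error only. The meaning of MiC and the driver that deletes the allele are not given in the sources used here, and both libraries carry the genotype entry wild-type.

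The control-labelled library held 3490 cells with a median of 4953 UMIs, and the cKO-labelled library held 3586 cells with a median of 4903 UMIs. Prickle1, the gene named in the labels, did not bear them out: it had 96 UMIs in the control-labelled cells and 265 in the cKO-labelled cells, 2.56 and 9.03 CPM (counts scaled to 1000000 UMIs of the cells summed). In smooth muscle-like cells it stood at 15.1 and 24.4 CPM, a ratio of 1.61 with a 95% interval of 0.877 to 3.15. The ratio was 2.04 (1.44 to 2.95) in fibroblast, 2.89 (1.21 to 8.39) in T and 4.12 (1.19 to 11.6) in epithelium-like cells. In lymphatic endothelium-like cells it was 0.653 (0.264 to 1.76). Prickle1 counts at the 3′ end need not fall with a floxed allele, and the deleted part is not given in the sources used here. Every direction below is therefore between the libraries as labelled. Epithelium-like cells made up 37.7% of the control-labelled cells and 3.07% of the cKO-labelled cells, so levels were compared within cell classes. The classes were named from marker genes, and 6 cell barcodes occurred in both libraries.

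Interferons are secreted alarm proteins whose receptors signal through JAK kinases to transcription factors in the nucleus. The response to interferon-gamma is known to run mainly through GAS elements in promoters, and the responses to type I and type III interferons mainly through ISRE elements. GBPs and IRGs are large GTPases induced by these signals in most cell types, and they gather on the vacuoles that enclose intracellular bacteria and parasites and help to break them open. In the uterus, interferons are made by epithelial and immune cells, and interferon epsilon is a type I interferon of the reproductive tract epithelium.

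Of the members, 9 lie on chromosomes 3, 5 and 11 of the mouse genome (GRCm38.p6). On chromosome 3 the annotation gives Gbp5 at 142496934 to 142522344, Gbp7 at 142530336 to 142550151, Gbp3 at 142560016 to 142573213 and Gbp2 at 142620663 to 142638008. Chromosome 5 carries Gbp4 at 105115767 to 105139586 and Gbp6 at 105270702 to 105295871. Chromosome 11 carries Irgm1 at 48865245 to 48871420, Igtp at 58199556 to 58207592 and Irgm2 at 58214977 to 58222783.

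RefSeq promoters of GRCm38.p6, from 250 bases before to 50 bases after the start, were found for 7 of the 10 genes, with no entry for Gbp4, Gbp6 or Iigp1. An ISRE of the letters GAAA, 2 bases of any kind and GAAA again, on either strand, was present in at least 1 promoter of each of the 7 genes. Counted by promoter it was in 7 of 8, with none in the other promoter listed for Gbp3, against 3.44% of 32851 promoters. A GAS of the letters TTCNNNGAA, on either strand, was present in 4 of the 8, those of Gbp5, Gbp7, Irgm2 and Igtp, against 8.3% of the same promoters. Both motifs stood together in those 4 promoters and in 0.454% of all promoters. A match describes the letters only and is not a measured binding site. As examples, 5 promoters are shown from 110 to 11 bases before the start. They read 5′ to 3′ on the gene's strand, with GAS and ISRE letters in capitals. They are Gbp2 (chr3:142620553-142620652, plus strand), Gbp7 (chr3:142530226-142530325, plus strand), Irgm1 (chr11:48871431-48871530, minus strand), Irgm2 (chr11:58214867-58214966, plus strand) and Igtp (chr11:58199446-58199545, plus strand).
Gbp2: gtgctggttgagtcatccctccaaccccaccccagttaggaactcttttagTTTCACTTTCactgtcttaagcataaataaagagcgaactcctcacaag
Gbp7: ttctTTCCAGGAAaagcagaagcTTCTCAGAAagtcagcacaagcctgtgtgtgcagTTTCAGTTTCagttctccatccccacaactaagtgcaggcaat
Irgm1: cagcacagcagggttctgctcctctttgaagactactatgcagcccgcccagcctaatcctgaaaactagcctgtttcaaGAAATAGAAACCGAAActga
Irgm2: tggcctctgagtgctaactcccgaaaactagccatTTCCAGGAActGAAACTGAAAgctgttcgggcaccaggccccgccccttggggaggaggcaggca
Igtp: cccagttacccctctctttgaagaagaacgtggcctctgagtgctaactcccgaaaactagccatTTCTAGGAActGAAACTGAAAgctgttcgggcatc
Gbp2 holds a single ISRE, read on the opposite strand, that begins 59 bases before the start. Gbp7 holds a pair of GAS matches upstream of its ISRE, and Irgm1 holds ISRE matches that overlap and no GAS. In the neighbouring genes Irgm2 and Igtp a GAS is followed by an ISRE, with 11 bases between their first bases in each.

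The 10 GTPases, summed, were lower in the cKO-labelled library in each of the 7 cell classes that had 50 or more cells in each library. The gap was widest in dendritic-like cells, the antigen-presenting cells of the tissue: 3049 UMIs gave 1737 CPM (95% interval 1676 to 1800) in the control-labelled library, and 385 UMIs gave 206 CPM (186 to 228) in the cKO-labelled one. That was an 8.43-fold lower level (7.58 to 9.40). Macrophage or monocyte-like cells, the tissue phagocytes, held 1830.0 CPM (1779 to 1882) against 418 CPM (387 to 449), a 4.38-fold lower level (4.05 to 4.75). Fibroblast-like cells of the stroma held 221 against 51.3 CPM, which was 4.31-fold lower (3.97 to 4.67). In these 3 classes the intervals of the libraries, which cover counting error only, did not overlap.

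The gap was narrower in the other 4 classes. Epithelium-like cells held 346 CPM in the control-labelled library and 136 CPM in the cKO-labelled one, 2.55-fold lower (2.2 to 2.97). T cell-like cells held 1083 and 449.6 CPM, 2.41-fold lower (2.19 to 2.65). NK cell-like cells, cytotoxic lymphocytes that also make interferon-gamma, held 1090.0 and 462 CPM, 2.36-fold lower (2.13 to 2.62). Smooth muscle-like cells had 107 UMIs in each library, at 116 CPM (94.8 to 140) and 51.1 CPM (41.9 to 61.8), 2.26-fold lower (1.72 to 2.99). The intervals of the libraries did not overlap in any of these classes either.

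The order of the classes also differed between the libraries. In the control-labelled library, macrophage and dendritic-like cells led with intervals that overlapped, NK and T cell-like cells followed, again overlapping, and then came epithelium, fibroblasts and smooth muscle. The highest class stood 15.8 times above the lowest. In the cKO-labelled library NK, T and macrophage-like cells led with overlapping intervals, dendritic-like cells came next, then epithelium, and fibroblasts and smooth muscle overlapped at the bottom. The highest there stood 9.04 times above the lowest.

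**Figure D1:**
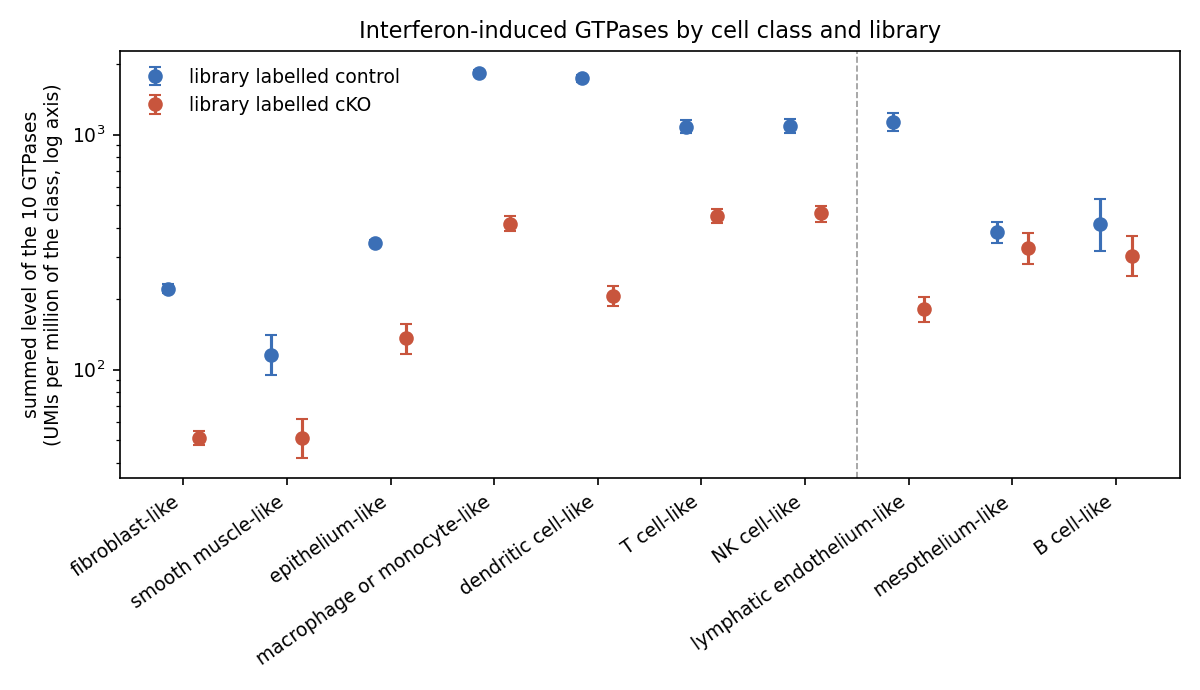
Summed CPM of the 10 GTPases in each cell class, on a log axis, for the library labelled control and the library labelled cKO, with exact Poisson 95% intervals. Dendritic-like cells go from 1737 to 206 CPM and smooth muscle-like cells from 116 to 51.1 CPM. Classes right of the dashed line had under 50 cells in a library, and mast cell and granulocyte-like cells are not drawn.

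Classes with under 50 cells in a library give levels only. Lymphatic endothelium-like cells held 1133 CPM in 31 control-labelled cells and 180.2 CPM in 103 cKO-labelled cells. Mesothelium-like cells, the outer lining, held 384 CPM in 82 cells and 329 CPM in 31 cells, and B cell-like cells held 415 CPM in 25 cells and 306 CPM in 29 cells. In both of these classes the interval of the summed ratio included no difference, but the members did not move together. In mesothelium-like cells the 4 IRGs were 2.69-fold lower (1.85 to 4.02), while Gbp2 was higher, at a ratio of 1.36 (1.04 to 1.76). In B cell-like cells the 4 IRGs were 2.49-fold lower (1.40 to 4.45) and the 6 GBPs stood at 231 and 231.5 CPM. Granulocyte-like cells gave 12 UMIs in 5 cells and 17 UMIs in 30 cells. Mast cell-like cells gave 9 UMIs in 42 cells and 0 in 53 cells, which allows a share of up to 5.66% of cells with a UMI.

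A gene was counted as lower at a log2 ratio of -1 or below, on the log2(CPM + 5) scale, where the mean of both libraries was at least 10 CPM. In macrophage-like cells 10 of 10 members were counted as lower, where 2.22% of all genes at that level were. In dendritic-like cells 9 of the 9 members at that level were lower, against 3.62% of all genes, and Gbp6 was under the level. In NK cell-like cells 6 of 9 were lower against 2.77%, with Iigp1 under the level, and in T cell-like cells 6 of 10 were lower against 1.34%. In epithelium-like cells 5 of 7 were lower against 7.33%, in fibroblast-like cells 2 of 3 against 0.678%, and in smooth muscle-like cells 1 of 4 against 1.55%. Of these 39 counts of a lower member, 12 were of a gene under 10 CPM in the cKO-labelled library, which passed the level filter through the control-labelled library alone, 4 of the 5 in epithelium and 3 of the 9 in dendritic-like cells among them. Those 12 had to differ, and the other 27 were at 10 CPM or more in both libraries. No member was 2-fold higher in any of the 7 classes. The share of all genes that were 2-fold higher was 1.1% in macrophage, 2.44% in dendritic, 2.86% in NK, 1.96% in T, 12.1% in epithelium, 1.5% in fibroblast and 3.32% in smooth muscle-like cells. With all cells summed, 7 of 10 members were lower against 7.4% of genes and 0 were higher against 5.38%, but there the unequal mix of classes enters the sums.

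The members' median log2 ratio was -2.87 in dendritic, -1.63 in macrophage, -1.47 in epithelium, -1.27 in fibroblast, -1.15 in NK, -1.09 in T and -0.86 in smooth muscle-like cells. In every class it includes members that passed the level filter through the control-labelled library alone and so had to be lower. The epithelium median is the value of such a member, Iigp1, at 6.67 CPM on 9 cKO-labelled UMIs. Over all genes at that level the median lay between 0.08 and 0.22 in these classes. Scaling by the median of ratios, which centres those medians near 0, left every summed ratio below 0. The members in a class come from 1 pool of cells in each library, so they are not independent replicates of the difference.

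**Figure D2:**
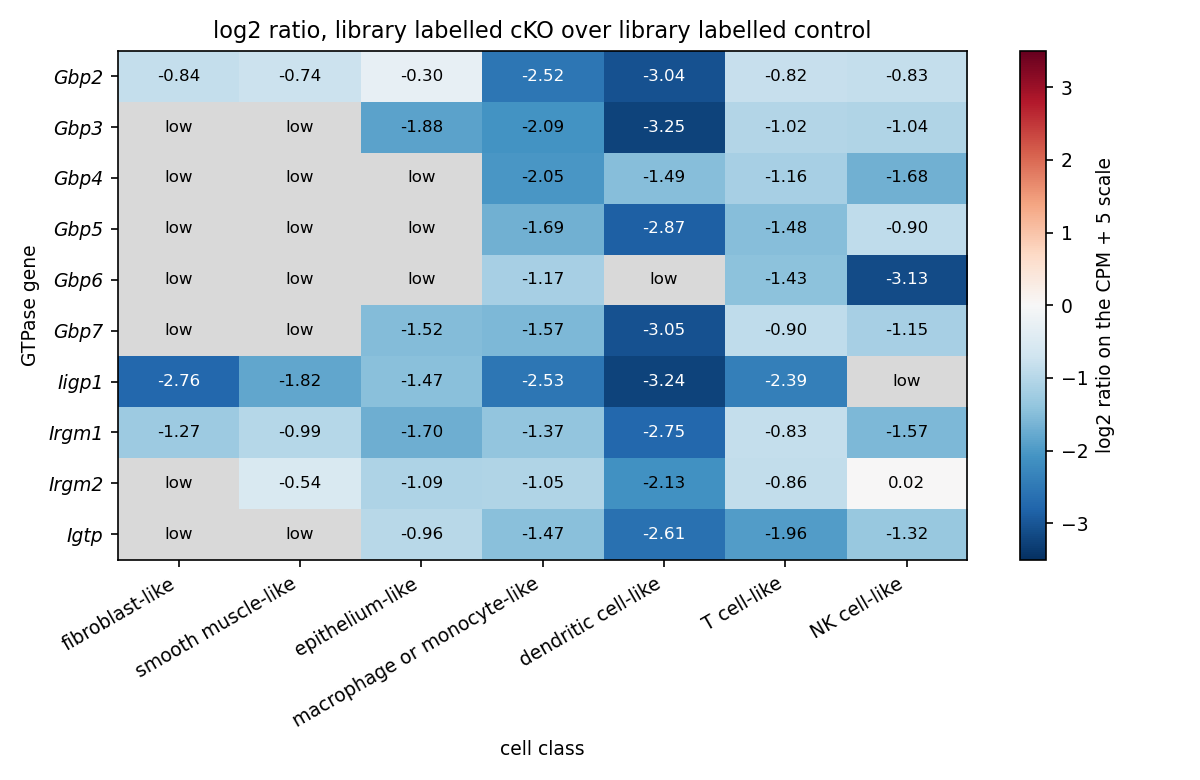
Log2 ratio of CPM + 5, labelled cKO over labelled control, for each of the 10 GTPases (rows) in each of the 7 compared cell classes (columns), coloured on a scale centred on 0, with grey cells marked low where the mean of both libraries was under 10 CPM. The dendritic-like column runs lowest, with Gbp3 at -3.25, and Irgm2 in NK cell-like cells, at 0.02, is the single value at the level filter that is not below 0.

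Gbp2 and Gbp5 are guanylate-binding proteins that coat bacteria and pathogen vacuoles, and Gbp5 is also known to promote inflammasome activation. In dendritic-like cells Gbp2 stood at 668 CPM (1173 UMIs) in the control-labelled library and 77.0 CPM (144 UMIs) in the cKO-labelled one, a log2 ratio of -3.04. In macrophage-like cells it stood at 284 and 45.3 CPM, a log2 ratio of -2.52. Elsewhere Gbp2 differed less: the log2 ratio was -0.84 in fibroblasts, -0.83 in NK cells, -0.82 in T cells, -0.74 in smooth muscle and -0.30 in epithelium-like cells. Thus 2 of the 7 classes counted Gbp2 as lower. Gbp5 followed the same order among the myeloid classes, from 318 to 39.1 CPM in dendritic-like cells (-2.87) and from 290 to 51 UMIs in macrophage-like cells (-1.69). NK cell-like cells held Gbp5 at 126 and 65.0 CPM, a ratio short of 2-fold (-0.90), while T cell-like cells gave 22 and 11 UMIs (-1.48). Epithelium-like cells gave 175 Gbp5 UMIs in the control-labelled library and 0 in the cKO-labelled one, with a mean under the 10 CPM level.

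Gbp3 and Gbp7 are neighbours on chromosome 3, and Gbp7 has been linked to the assembly of the phagocyte oxidase. Dendritic-like cells held Gbp3 at 114 CPM (200 UMIs) and 7.49 CPM (14 UMIs), 15.2-fold apart (8.85 to 28.3). Gbp7 in the same cells stood at 134 CPM (235 UMIs) and 11.8 CPM (22 UMIs), 11.4-fold apart (7.34 to 18.5). Both ratios were larger than that of the summed family in the same cells, with intervals that overlapped its interval. The epithelium-like cells showed both genes lower too, Gbp3 from 35.3 to 5.93 CPM (-1.88) and Gbp7 from 28.4 to 6.67 CPM (-1.52), on 8 and 9 cKO-labelled UMIs. In NK cell-like cells Gbp7 went from 205 to 89.8 CPM (-1.15) and Gbp3 from 110.4 to 51.1 CPM (-1.04). Gbp7 in T cell-like cells, at 142 and 73.7 CPM, fell short of 2-fold (-0.90).

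Gbp4 and Gbp6 are less certain, because their 3′ ends resemble those of other GBPs. Of the 50-base stretches in their last 500 bases, 19.4% for Gbp4 and 77.8% for Gbp6 also occur in another gene, including Gbp8, Gbp9 and Gbp10. The shares for the other members were between 0.0% and 3.96%. Gbp4 stood at 146 CPM in NK cell-like cells of the control-labelled library and 42.3 CPM in those of the cKO-labelled one (-1.68). T cell-like cells held it at 129 and 55.0 CPM (-1.16), and smooth muscle-like cells held no UMI of it in either library. Gbp6 gave 50 UMIs in NK cell-like cells of the control-labelled library and 4 in those of the cKO-labelled one, 64.2 and 2.92 CPM (-3.13). T cell-like cells gave 88 and 64 Gbp6 UMIs, 103 and 35.2 CPM (-1.43). Gbp6 was nearly missing from dendritic-like cells, with 7 and 4 UMIs.

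Iigp1, on chromosome 18, is an effector IRG that loads onto the vacuole of intracellular parasites. Macrophage-like cells held 2145 Iigp1 UMIs in the control-labelled library and 228 in the cKO-labelled one, 800.5 and 134 CPM (-2.53). In fibroblast-like cells it stood at 76.5 and 7.07 CPM, 10.8-fold apart (8.87 to 13.3), and in T cell-like cells at 108 and 16.5 CPM, 6.53-fold apart (4.29 to 10.2). Dendritic-like cells gave 92 UMIs in one library and 2 in the other, 52.4 and 1.07 CPM, a ratio of 49.0 whose interval ran from 13.2 to 410. NK cell-like cells gave 14 UMIs in the control-labelled library and 0 in the cKO-labelled one, and the exact interval of the fold begins at 5.84. Smooth muscle-like cells gave 21 and 6 UMIs (-1.82), the 1 member counted as lower there. Among the 7 compared classes, both libraries held Iigp1 at 10 CPM or more in macrophage and T cell-like cells alone. In the other 4 classes where it was counted as lower, it passed the level filter through the control-labelled library.

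Irgm1, Irgm2 and Igtp (also called Irgm3) are regulatory IRGs that sit on the cell's own membranes and keep effector IRGs inactive there. Irgm1 stood at 112 and 31.1 CPM in epithelium-like cells, on 2117 and 42 UMIs (-1.70), and at 256 and 33.7 CPM in dendritic-like cells (-2.75). It was also lower in NK (149 and 46.7 CPM, -1.57), macrophage (230.3 and 85.8 CPM, -1.37) and fibroblast-like cells (37.3 and 12.5 CPM, -1.27). T cell-like cells, at 160.4 and 88.0 CPM (-0.83), and smooth muscle-like cells, at 24.9 and 10.0 CPM (-0.99), did not reach 2-fold. Igtp was at 148 and 34.1 CPM in T cell-like cells (-1.96), at 116 and 38.8 CPM in macrophage-like cells (-1.47) and at 78.0 and 8.56 CPM in dendritic-like cells (-2.61). Irgm2 stood apart from its neighbour in NK cell-like cells: Igtp went from 98.9 to 36.5 CPM there (-1.32), while Irgm2 was at 73.2 CPM (57 UMIs) and 74.4 CPM (102 UMIs). The Irgm2 log2 ratio was 0.02 by total UMIs and -0.11 by the median of ratios, and the interval of the fold, 0.698 to 1.37, included no difference. In dendritic-like cells Irgm2 was 6.05-fold lower (3.69 to 10.4). Whether the classes differ in Irgm2 was not tested.

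The GBPs and IRGs did not keep the same balance in every class. In fibroblast-like cells the 6 GBPs, summed, were 2.99-fold lower (2.66 to 3.38) and the 4 IRGs 5.73-fold lower (5.12 to 6.43). These intervals, which cover counting error only, did not overlap. Epithelium-like cells showed 2.01-fold (1.66 to 2.45) for GBPs and 3.41-fold (2.70 to 4.38) for IRGs. These sums were not computed without clusters mostly of 1 library. On the epithelium-like cells outside such clusters the IRG log2 ratios were -0.39 for Irgm1, -0.25 for Irgm2, -0.55 for Igtp and -1.32 for Iigp1. The GBPs, whether or not at the level filter, were at -0.37 for Gbp2, -1.40 for Gbp3, -1.50 for Gbp4, -1.46 for Gbp5, -0.25 for Gbp6 and -0.84 for Gbp7. On the fibroblast-like cells outside such clusters the IRGs were at -1.28 for Irgm1, -1.10 for Irgm2, -0.76 for Igtp and -2.01 for Iigp1. The GBPs there were at -0.15 for Gbp2, -0.78 for Gbp3, 0.05 for Gbp4, -0.76 for Gbp5, -0.62 for Gbp6 and -0.63 for Gbp7, so none reached -1. In dendritic-like cells the sums of GBPs and IRGs were alike, 8.45-fold (7.47 to 9.60) and 8.37-fold (6.79 to 10.4) lower. Iigp1 made up 43.8% of the GTPase UMIs of macrophage-like cells in the control-labelled library and 32.1% in the cKO-labelled one. In fibroblast-like cells its share was 34.6% and 13.8%, and the share of Gbp2 was 14.6% and 31.0%. In dendritic-like cells Gbp2 made up 38.5% and 37.4% and Gbp5 made up 18.3% and 19.0%. These are shares of 3′ counts, and levels were not compared between genes.

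In the 7 compared classes, counting cells rather than molecules gave the same order of libraries. Mesothelium-like cells, with 31 in the cKO-labelled library, had the other order, 18.3% and 35.5% thinned to 1000 UMIs (57.3% and 77.4% unthinned). B cell-like cells gave 24.0% and 24.1% (48.0% and 62.1% unthinned). With every cell thinned to 1000 UMIs, 45.6% of dendritic-like cells had a GTPase UMI in the control-labelled library and 11.5% in the cKO-labelled one (70.0% and 44.7% unthinned). The shares were 43.7% and 16.4% in macrophage-like cells (64.6% and 40.3% unthinned) and 10.2% and 3.88% in fibroblast-like cells (33.3% and 25.4% unthinned). Epithelium-like cells gave 22.8% and 8.18% (56.3% and 22.7% unthinned). Lymphocytes kept more of theirs, with 46.0% (37.6 to 54.7%) and 33.0% (27.7 to 38.7%) of NK cell-like cells (81.3% and 73.4% unthinned). T cell-like cells gave 39.5% (32.6 to 46.7%) and 29.4% (25.2 to 33.85%), with 66.2% and 53.2% unthinned. In both lymphocyte classes the thinned intervals of the libraries overlapped. The classes held no cell type known to lack these genes, and smooth muscle-like cells, the lowest in level, gave 10.1% and 4.12% (20.9% and 11.2% unthinned). After thinning, 3 or more different members were found in 24.4% of dendritic-like cells of the control-labelled library and in 0 of 208 in the other, which allows up to 1.44%. In macrophage-like cells the shares were 16.7% and 4.43%.

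**Figure D3:**
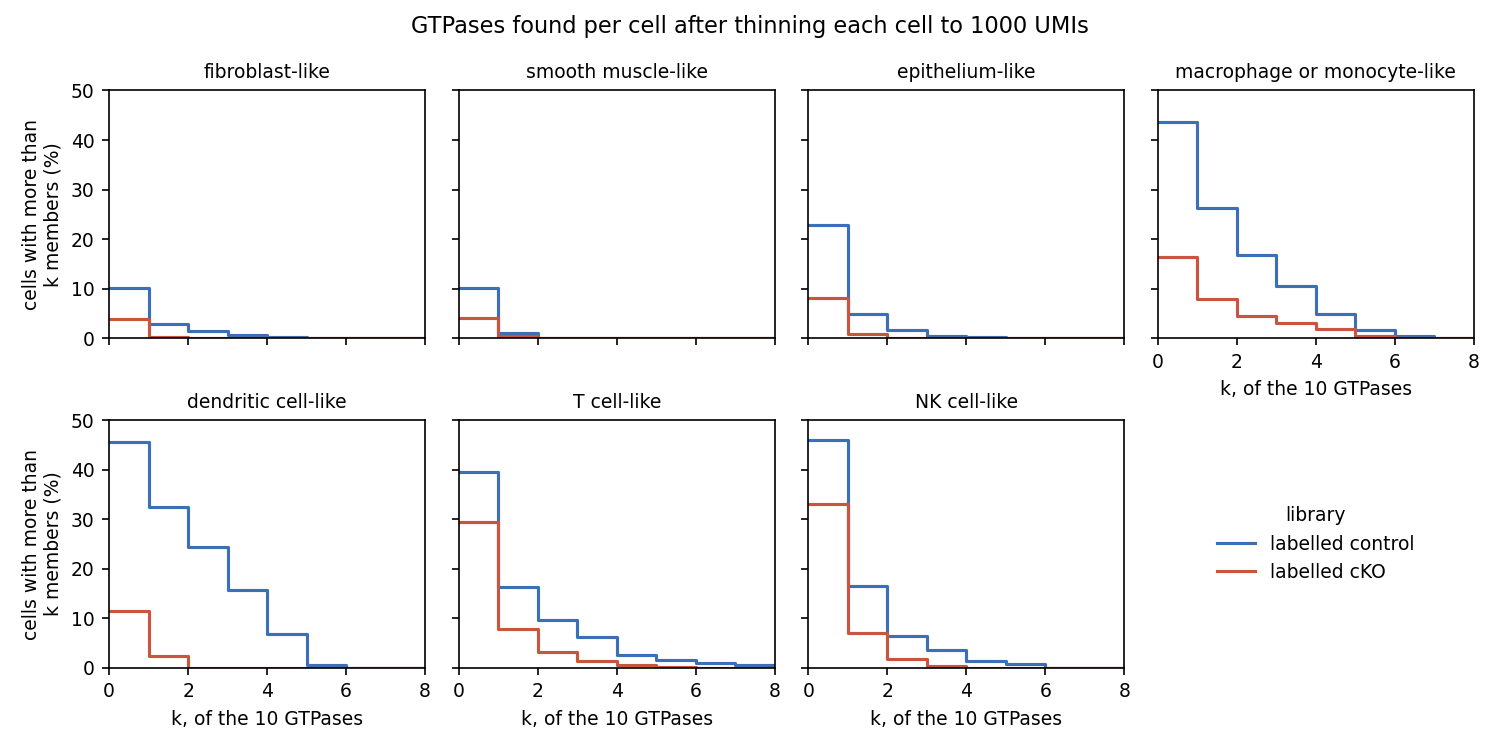
Share of cells, in percent, in which more than k of the 10 GTPases were found after thinning each cell to 1000 UMIs, against k, with 1 panel for each compared class and 1 line for each library. In dendritic-like cells 24.4% of cells hold 3 or more members in the library labelled control, and 0 of 208 do in the library labelled cKO.

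The counts were spread unevenly over cells. The intervals of levels and folds do not cover that spread, because they treat each UMI as independent. In fibroblast-like cells the 10% of cells with most GTPase UMIs held 86.7% of them in the control-labelled library and 72.1% in the cKO-labelled one. In macrophage-like cells that share was 65.2% and 75.5%, and in NK cell-like cells 41.2% and 36.02%.

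Within the clusters that had enough cells in both libraries the direction held, with different sizes. Among 17 named clusters with at least 20 cells in both libraries, 17 had a summed log2 ratio below 0, 15 had an interval below 0 and 12 were at -1 or lower. The median was -1.26. Macrophage, dendritic, NK, B, mast, mesothelium and lymphatic endothelium-like cells each formed a single cluster. Those clusters repeat the value of their class and are no separate check of its direction. Of the named clusters under 20 cells in a library, epithelium-like cluster 1 went the other way, at 3.5 (1.14 to 5.34). It had 17 UMIs in 30 control-labelled cells and 3 UMIs in 1 cKO-labelled cell. The others of that size, clusters 9, 20, 21, 22 and 23, were below 0. In fibroblast-like cells the log2 ratio was -2.42 in cluster 6, -2.75 in cluster 13 (44 UMIs against 1), -1.07 in cluster 17 and -0.27 in cluster 7. In cluster 6 the 10 highest control-labelled cells held 590 of 896 UMIs. Another fibroblast-like cluster was mostly cKO-labelled (16 and 222 cells), and 10 of its 16 control-labelled cells held 802 of 803 GTPase UMIs.

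In epithelium-like cells, cluster 9 had 242 control-labelled cells with 4261 GTPase UMIs and 1 cKO-labelled cell with none. Those 242 cells were deep, with a median of 35421 UMIs, against 3209.5 in control-labelled cells of cluster 0. Their GTPase level was 401 CPM, against 304 CPM in cluster 0. They held 4261 of the 6547 GTPase UMIs of control-labelled epithelium-like cells, so the class level leans on a cluster with almost no cKO-labelled counterpart. Cluster 0 (754 and 32 cells) had a log2 ratio of -3.5, on 948 UMIs against 3, and cluster 2 (291 and 76 cells) one of -0.80, where 1 cKO-labelled cell held 79 of 177 UMIs. Without clusters that drew over 90% of their cells from 1 library, the summed log2 ratio was -0.80 in epithelium and -1.48 in fibroblast-like cells, and the members counted as lower fell from 5 of 7 to 2 of 6 in epithelium. On those cells Irgm1 in epithelium-like cells was at -0.39 and Gbp2 in fibroblast-like cells at -0.15, while Iigp1 was at -1.32 and -2.01. The make-up of both classes differed between the libraries: most control-labelled epithelium was in cluster 0 (754 of 1317 cells) and most cKO-labelled epithelium in cluster 2 (76 of 110), while the largest fibroblast-like cluster was cluster 6 (318 of 853) in the one and cluster 7 (433 of 1341) in the other.

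**Figure D4:**
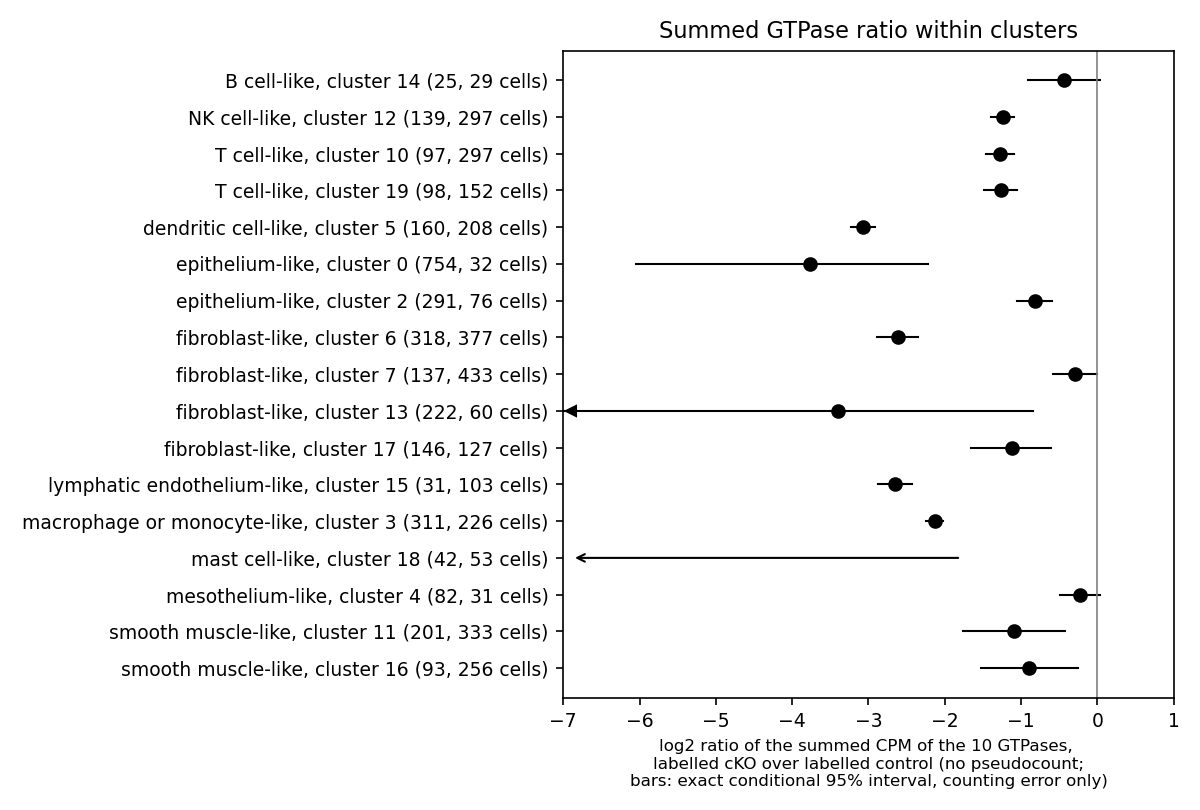
Log2 ratio of the summed CPM of the 10 GTPases, labelled cKO over labelled control and without a pseudocount, in each named cluster with at least 20 cells in both libraries, with exact conditional 95% intervals (arrows run past the axis or to a count of 0). All 17 clusters lie below 0, and the intervals of B cell-like cluster 14 and mesothelium-like cluster 4 reach above 0. Where a class formed a single cluster, the value repeats that of the class.

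Other genes of the interferon pathway were listed by role. Interferon beta, the type I ligand Ifnb1, had 1083 UMIs in 96 control-labelled cells (2.75%, 2.23 to 3.35%) and 2 UMIs in 1 cKO-labelled cell. In epithelium-like cells 91 of 1317 control-labelled cells held 993 of those UMIs, up to 127 in 1 cell, and 0 of 110 cKO-labelled cells held any, which allows up to 2.73%. Cluster 9, mostly control-labelled and deep in UMIs per cell, held 39 of the cells with Ifnb1. With all cells summed, Ifne (type I) had 110 UMIs and 4 UMIs and Ifnl3 (type III) had 66 and 2, but the unequal mix of classes enters there. Ifne in epithelium-like cells stood at 5.77 CPM in 5.77% of control-labelled cells (4.57 to 7.17%). It stood at 2.965 CPM in 1.82% of cKO-labelled ones (0.221 to 6.41%), so the intervals of the shares overlapped. All 66 control-labelled Ifnl3 UMIs were in epithelium-like cells, in 1.44% of them, and 110 cKO-labelled cells allow up to 2.73%. Interferon-gamma, Ifng, was not lower in NK cell-like cells. They held 14 UMIs in 7.19% of cells of the control-labelled library and 31 UMIs in 7.74% of cells of the cKO-labelled one. The part that these ligands have in the GTPase levels was not tested.

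**Figure D5:**
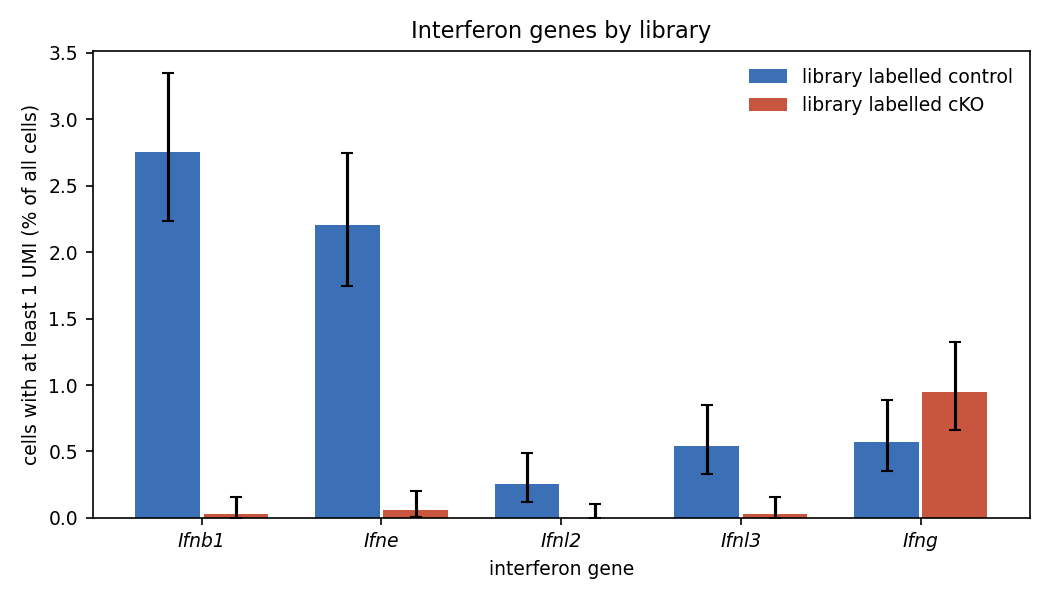
Share of all cells, in percent, with at least 1 UMI of each of 5 interferon genes, unthinned, in the library labelled control and the library labelled cKO, with exact binomial 95% intervals. Ifnb1 goes from 2.75% to 0.0279% of cells, while Ifng is at 0.573% and 0.948% with intervals that overlap.

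The median log2 ratio of the receptor list lay between -0.23 and 0.55 over the 7 classes, and the one receptor counted as lower was Ifngr1, a chain of the interferon-gamma receptor, in epithelium-like cells (-1.94). Ifngr2, the other chain, was at -0.91 there, and in macrophage-like cells Ifngr1 and Ifngr2 were higher, at 0.74 and 0.67, with intervals of the ratio above 1. Of the signalling proteins and transcription factors, 6 of 10 were lower in epithelium, 4 of 12 in dendritic, 3 of 11 in T, 3 of 10 in macrophage, 2 of 11 in NK, 2 of 8 in fibroblast and 0 of 5 in smooth muscle-like cells. The shares of all genes counted as lower, in that order of classes, were 7.33%, 3.62%, 1.34%, 2.22%, 2.77%, 0.678% and 1.55%. Irf7, which amplifies the type I response, lay between -1.45 and -3.41 in the 5 classes where it passed the level filter. Irf1, an interferon-induced transcription factor, lay between -0.10 and -0.66 in all 7.

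Genes of the type I antiviral response, such as the Ifit family and Rsad2, were lower in nearly every class. Those counted as lower were 15 of 15 at the level filter in dendritic and in epithelium-like cells, 12 of 12 in NK, 11 of 11 in T, 7 of 7 in fibroblast, 12 of 15 in macrophage and 0 of 1 in smooth muscle-like cells. Their medians, from -0.94 to -3.13, were below the GTPase median in every class except macrophage-like cells (-1.45). The interferon-gamma response list, such as Cxcl9 and the immunoproteasome genes, was lower for 5 of 10 in macrophage, 4 of 9 in dendritic, 5 of 7 in epithelium, 2 of 9 in T, 2 of 9 in NK, 1 of 3 in fibroblast and 0 of 3 in smooth muscle-like cells, and in NK cell-like cells 1 of 9, Cd74, was higher. The interferon-inducible GTPases outside the 10 members were lower for 5 of 5 in dendritic, 2 of 4 in macrophage, 3 of 4 in NK, 3 of 6 in T and 2 of 2 in epithelium-like cells. Among them Ifi47, an effector IRG, went from 600 to 58 UMIs in dendritic-like cells (-3.27). Over all genes the share counted as lower ran from 0.678% in fibroblast to 7.33% in epithelium-like cells, and 2.86% were counted as higher in NK cell-like cells. How many genes of the pathway lists passed the level filter through the control-labelled library alone was not counted.

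The proteins that work with these GTPases at vacuoles and inflammasomes, such as Atg5, Casp1 and Gsdmd, had medians between -0.12 and 0.21 over the classes, with at most 2 of 14 lower in any. Those 2 were in dendritic-like cells, where 3.62% of all genes were lower. The feedback inhibitors, such as Socs1 and Usp18, had medians between -1.09 in macrophage and 0.21 in smooth muscle-like cells.

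The genes whose level pattern over 14 points (7 classes in 2 libraries) was most like the mean of the 10 GTPases, outside the lists, were Slfn8 (Pearson r 0.950), Pml (0.950), Dtx3l (0.940), Ifi206 (0.936), Ifi213 (0.932), Parp14 (0.923), Parp10 (0.912), Parp9 (0.910), Herc6 (0.909) and Sp100 (0.903). They were ranked among 8928 genes, and the points share library and depth. Of the members, Igtp followed that mean most closely (0.981) and Iigp1 least (0.607). Against the mean of the 9 other members, Iigp1 reached 0.50.

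Free RNA was measured in barcodes with at most 100 UMIs. The 10 GTPases stood at 330.1 CPM there in the control-labelled library and 123 CPM in the cKO-labelled one. At the share of free RNA estimated in each class, it would give between 0.193% and 6.55% of the GTPase level of that class.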

How the data were processed

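The authors deposited unfiltered UMI counts per gene and barcode, raw counts with no normalization, for both libraries (10x Genomics 3′ v3). Per the submitters' processing notes, reads were processed with Cell Ranger 6.1.1 on mm10, whereas the matrix header gives Cell Ranger 4, so the version is uncertain. Barcodes with at least 1000 UMIs, 500 genes and at most 20% mitochondrial UMIs were kept as cells. They were clustered with scanpy 1.11.5 (2000 variable genes without any gene of the interferon lists, 30 components, 15 neighbours, Leiden resolution 1.0), and clusters were named from marker genes. UMIs were summed by class and library and scaled to CPM. Log2 ratios used a pseudocount of 5 CPM. Intervals are exact (Poisson, Clopper-Pearson or conditional binomial, scipy 1.17.1) at 95%. Where 0 cells were found, the share allowed is 3 divided by the number of cells, not the exact limit. The exact upper limit is somewhat higher, such as 6.72% for the 53 cKO-labelled mast cell-like cells. Free RNA was estimated from markers of unrelated classes in barcodes with at most 100 UMIs. Doublets were scored with Scrublet, whose automatic threshold marked 4 of 7076 cells (0.0565%) and so did not work. Doublets therefore remain. The counting and ratio steps were tested on simulated data. The members and gene lists were chosen with earlier results of these data known, and the named genes are all members, the listed pathway genes and the 10 genes most like the family. Of the listed genes, Gbp11, Gm12250, Mx1, Mx2 and Cxcl11 were not matched by symbol and are not analysed here. A comparison of member protein sequences was not run. One listed signalling gene is not reported here by name.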

Additional observations from a re-analysis of the deposited data

Results flagged for a closer look

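Outside the cells, the barcodes with at most 100 UMIs held 851 GTPase UMIs in the control-labelled library and 226 in the cKO-labelled one, a log2 ratio of -1.39. The unnamed cluster 8, with 24 and 29 cells, held 281 and 70 GTPase UMIs, a log2 ratio of -2.36. Among the listed pathway genes, Cd74, the invariant chain of MHC class II, moved in opposite directions: its log2 ratio was 2.02 in NK cell-like cells (31 and 242 UMIs) and -1.35 in epithelium-like cells (3119 and 83 UMIs), a gap of 3.37. That difference was not tested.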

How the results depend on the processing

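No paired analysis was possible because each condition had 1 library. Of 70 alternatives to the summed log2 ratio, 70 were below 0 and 68 were at -1 or lower, from -3.44 to -0.65, and none reversed. Leaving out clusters mostly of 1 library removed no cell from smooth muscle, macrophage, dendritic, T and NK cell-like cells. Those alternatives are among the 70 and could not differ. Values that moved were, by median of ratios, -3.25 in dendritic-like cells. Thinned to 1000 UMIs they were -3.44 in dendritic, -2.21 in fibroblast, -1.83 in macrophage, -1.07 in T and -1.02 in NK cell-like cells. At resolution 2.0 they were -3.32 in dendritic, -1.96 in macrophage and -1.09 in T cell-like cells. Without clusters mostly of 1 library they were -1.48 in fibroblast and -0.80 in epithelium-like cells, and with interferon genes kept for clustering -0.65 in smooth muscle-like cells. Members counted as lower in smooth muscle-like cells were 2 by median of ratios, 2 at a pseudocount of 1 CPM, 2 when thinned, 2 with at least 2000 UMIs and at most 10% mitochondrial UMIs and 0 with interferon genes kept, against 1. In fibroblast-like cells they were 5 when thinned and 8 with no level filter, against 2, and in epithelium-like cells 2 without clusters mostly of 1 library, against 5. The cause of these changes was not tested. With 1 pooled library per condition, a difference between libraries and a difference between genotypes cannot be told apart. Epithelium had 110 cKO-labelled cells, where 4 of the 7 members at the level filter had fewer than 10 UMIs.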
